A study of Mus musculus with 38 samples.

Results

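Ribosome footprints on 7 genes of trans-synaptic adhesion were followed in cultured mouse cortical neurons: the neurexins Nrxn2 and Nrxn3, the neuroligins Nlgn1, Nlgn2 and Nlgn3, and the leucine-rich repeat transmembrane proteins Lrrtm1 and Lrrtm2. They were chosen by name, as 7 of the 22443 genes with a symbol and a coding sequence (CDS) in the count files. Each gene was measured on 1 transcript, its longest, in every one of the 38 libraries. The libraries came from PL-Ribo-seq, in which the biotin ligase TurboID labels proteins close to it, streptavidin pulls down the labelled material with its ribosomes, and the RNA fragments held inside ribosomes are sequenced. From every culture both an input library, with all ribosomes, and a pulldown library were made.

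All cultures were primary cortical neurons from embryos of CD-1 mice, infected with a doxycycline-inducible lentivirus and given cycloheximide for 2 min before biotin, 30 min by the labels. The lentivirus carried TurboID-PSD95 (PSD95-TurboID in the labels), which is sent to dendrites by sequences of the postsynaptic scaffold PSD95, or Pan-TurboID, which labels the whole cell. Resting cultures and cultures depolarized with 55 mM KCl for 1 h, after tetrodotoxin and DL-AP5 for 2 h, made up 24 libraries, with 3 cultures for each virus and state. Cultures with TurboID-PSD95 and DHPG (100 µM for 10 min), which activates metabotropic glutamate receptors, gave 6 libraries from 3 cultures. By the study's methods these too were first silenced with tetrodotoxin and DL-AP5, then washed and kept in regular medium before DHPG. After KCl, the fresh medium with biotin again held both compounds. Cultures with TurboID-PSD95 and 20 nM siRNA against eIF4G2, a translation initiation factor, for 72 h gave 8 libraries, from 2 resting and 2 KCl-depolarized cultures. No group with another siRNA was analysed here, so the experiment, the transfection and the knockdown cannot be told apart, and DHPG can be set only against resting cultures of the KCl experiment. The study describes its PL-Ribo-seq replicates as biological, with the resting and activated cultures of a replicate handled together, and it gives a shorter time of biotinylation with DHPG than with KCl, where the labels give 1 time for all. The labels do not say which replicates of the 3 experiments share a cell preparation.

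Neurexins are presynaptic receptors whose extracellular domains reach across the synaptic cleft. Each neurexin gene has a long alpha form and a shorter beta form made from an internal promoter, which share their C-terminal exons. Neuroligins and LRRTMs are postsynaptic partners of neurexins: Nlgn1 is known from excitatory synapses, Nlgn2 from inhibitory synapses, Nlgn3 from both, and Lrrtm1 and Lrrtm2 from excitatory synapses. A pulldown with TurboID-PSD95 is therefore made around the side of the synapse where neuroligins and LRRTMs act, although neurons also translate these membrane proteins in the cell body.

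On mm10 the CDS of Nrxn2 (ENSMUST00000113462, 22 coding segments, 5112 nt) spans chr19:6428049-6532148 on the plus strand, and that of Nrxn3 (ENSMUST00000163134, 20 segments, 4716 nt) spans chr12:88795185-90332410 on the plus strand. Nlgn1 (ENSMUST00000193603, 6 segments, 2532 nt) lies at chr3:25433638-26133734 on the minus strand. Nlgn2 (ENSMUST00000108634, 7 segments, 2511 nt) lies at chr11:69825203-69834438 on the minus strand. Nlgn3 (ENSMUST00000151528, 7 segments, 2538 nt) lies at chrX:101301984-101320262 on the plus strand. The LRRTMs have compact coding regions: Lrrtm1 (ENSMUST00000020400) in 1 segment of 1569 nt at chr6:77243562-77245130 on the plus strand, and Lrrtm2 (ENSMUST00000091636) in 2 segments of 1548 nt together at chr18:35212700-35214596 on the minus strand. No other gene's CDS overlapped the CDS of a member.

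CDS footprints of a library summed to between 2047169 and 14636018, and levels are given relative to that sum, as counts per 1000000 (CPM). Summed over all 38 libraries the members had 191916 footprints for Nrxn2, 84915 for Nlgn3, 79641 for Nrxn3, 51879 for Nlgn2, 16010 for Nlgn1, 13468 for Lrrtm1 and 10812 for Lrrtm2. The lowest count of any member in any library was 32, for Lrrtm1. Labels were checked on the bait, the siRNA target and the activation. Dlg4, which encodes PSD95, was 6.29 to 26.2 times its input in TurboID-PSD95 pulldowns and 0.781 to 1.00 times its input in Pan-TurboID pulldowns. TurboID-PSD95 was made with a rat PSD95 sequence, and the part of the construct in the Dlg4 counts was not tested. Eif4g2 stood at 284 to 338 CPM in knockdown inputs against 445 to 811 CPM in the other inputs, and at 205 to 265 against 299 to 595 CPM in pulldowns, with no overlap in either. Arc, an immediate early gene, was at 5.72 to 17.2 CPM in resting inputs and 103 to 177 CPM in depolarized inputs of the KCl experiment, and Fos, another, at 179.7 to 465 and 2047 to 2971 CPM. In knockdown inputs Arc was at 11 and 13.6 CPM at rest and 40.2 and 47.1 after KCl, and Fos at 174 and 176 and 1831 and 1862 CPM. DHPG inputs had 31.3, 34.3 and 31.1 CPM for Arc, above all resting inputs, and 41.4, 39.4 and 37.6 CPM for Fos, below all of them. Neuronal markers (11 genes) summed to 5729.8 to 11909.9 CPM over all libraries, and astrocyte markers (8 genes) to 226 to 1511 CPM. Oligodendrocyte lineage markers (8 genes) summed to 21.5 to 609 CPM, microglial markers (8 genes) to 0 to 25.7 CPM and endothelial markers (3 genes) to 0 to 4.25 CPM. The mature oligodendrocyte marker Mog was at 0 in 13 of the 14 groups, and S100b, an astrocyte marker, was at 0 in every pulldown group and in the DHPG inputs.

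The proteins meet PSD95 and other scaffolds through their C termini, which bind PDZ domains: those of neuroligins bind PSD95, and those of neurexins bind CASK. The last 30 coding bases are shown because they encode these ends, and that of Lrrtm2 is not shown. They are from the GRCm38 (mm10) genome sequence, 5′ to 3′ on the coding strand, and capitals mark the last 4 codons before the stop codon.
Nrxn2, chr19:6532119-6532148, plus: aagaacaaagacaaaGAGTATTACGTCtga
Nrxn3, chr12:90332381-90332410, plus: aaaaacaaggacaagGAGTATTATGTGtaa
Nlgn1, chr3:25433638-25433667, minus: ccccattcacattcaACAACCAGGGTAtag
Nlgn2, chr11:69825203-69825232, minus: ccccatccccactccACCACTCGGGTAtag
Nlgn3, chrX:101320233-101320262, plus: ccccactcacactccACTACCCGTGTAtag
Lrrtm1, chr6:77245101-77245130, plus: cagcagcctgcgaggGAATGCGAGGTGtga

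The alternatively spliced exon of 90 nt at splice site 4 of the neurexins is shown for the results on splicing further on, since neurexins with and without it are known to differ in their binding of LRRTMs and other partners. Its first 30 bases are given from the same genome sequence, and capitals mark the bases at which both genes differ. Over the whole exon 59 of 90 bases (65.6%) were identical between Nrxn2 and Nrxn3.
Nrxn2, chr19:6513716-6513745, plus: gAaacTTtgataaCgaGcgcctGGCGatTg
Nrxn3, chr12:90199147-90199176, plus: gCaacACtgataaTgaAcgcctCCAAatGg

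Levels per length of CDS (CPM per kb, the scale on which genes are compared here) put Nrxn2 first and Nlgn3 next. Over all 38 libraries Nrxn2 ranged from 76.3 to 268 CPM per kb with a median of 148, and Nlgn3 from 57.6 to 262 with a median of 129.5. Nlgn2 followed at 45.9 to 143 with a median of 80.7, and Nrxn3 at 29.7 to 142 with a median of 65.3. Lrrtm1 at 9.68 to 71.9 (median 32.6), Nlgn1 at 17.5 to 43.3 (median 28.4) and Lrrtm2 at 15.5 to 65.4 (median 28.2) were the low members. Nlgn3 exceeded Nlgn2 in 37 of 38 libraries, while Nrxn2 exceeded Nlgn3 in 27, Nlgn2 exceeded Nrxn3 in 28 and Nrxn3 exceeded Lrrtm1 in 33. Lrrtm1 exceeded Nlgn1 in 26 libraries and Nlgn1 exceeded Lrrtm2 in 14, so the order of the 3 low members depended on the library. Among 16104 genes with a median of at least 10 counts, the median level stood at percentile 93.7 for Nrxn2, 92.7 for Nlgn3, 88.2 for Nlgn2, 85.4 for Nrxn3, 73.1 for Lrrtm1, 70.4 for Nlgn1 and 70.2 for Lrrtm2. Most groups could not be ordered within a gene: of the 13 pairs of neighbours in the order of the 14 group means, 8 overlapped in range for Nrxn3, 11 for Nrxn2 and for Nlgn3, and 12 for each of the other members.

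**Figure D1:**
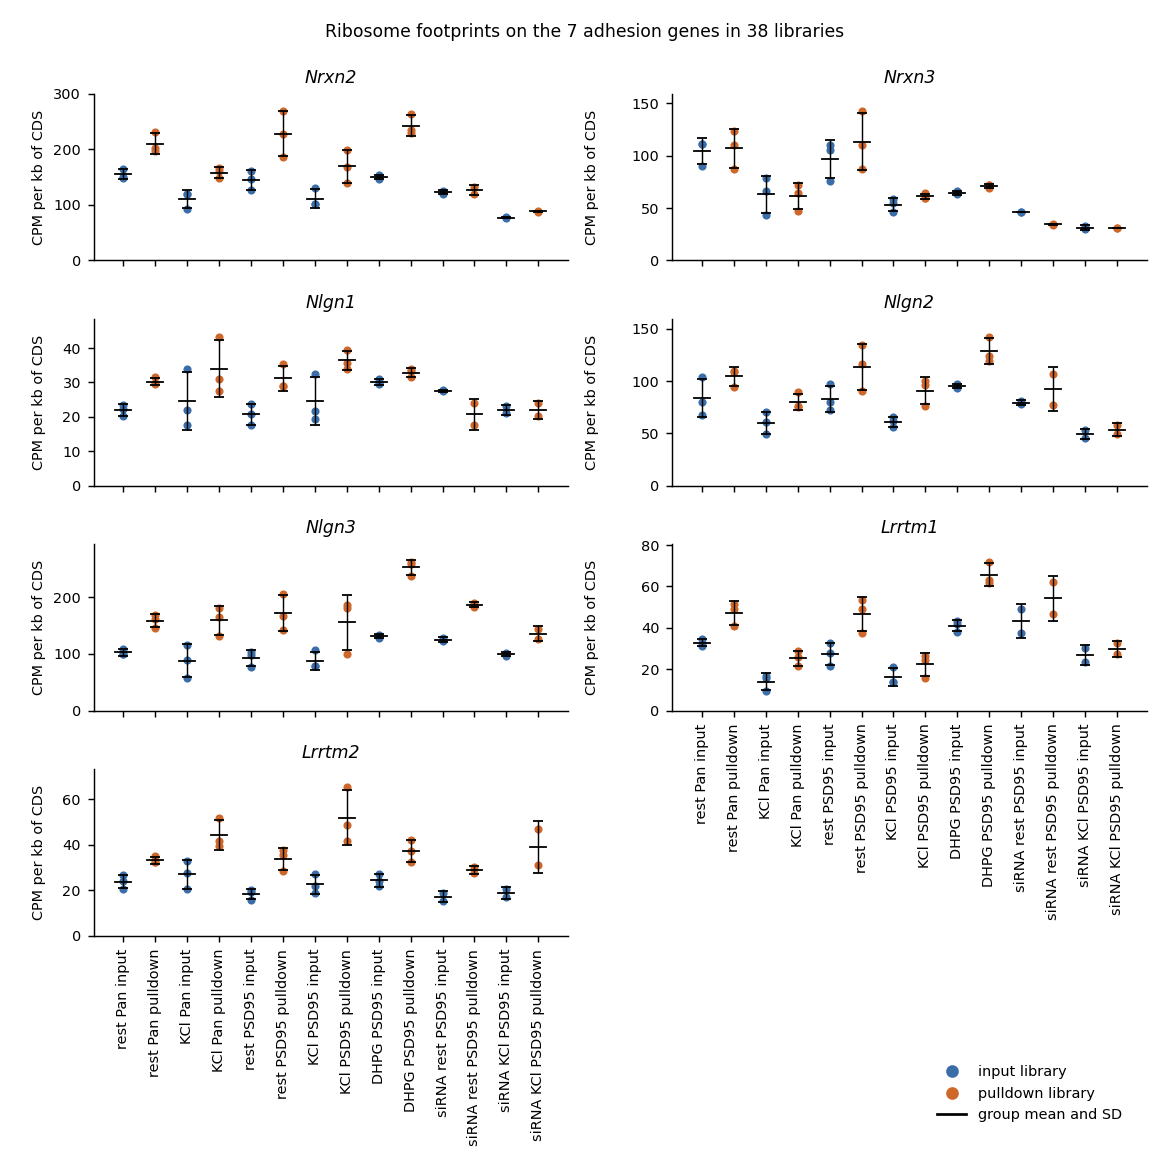
Footprints of each of the 7 genes in all 38 libraries, as CPM per kb of CDS, with 1 point per library and the 14 groups set apart by state and by input or pulldown. Nrxn2 (median 148) and Nlgn3 (median 129.5) are the highest, Nlgn1 (28.4) and Lrrtm2 (28.2) the lowest, and for most of the genes pulldowns lie above the inputs of the same state.

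All 7 genes took a larger share of pulldown footprints than of input footprints in most cultures, and Nrxn3 was the nearest to parity. Over the 19 cultures, the pulldown CPM over the CPM of the same culture's input was above 1 in 19 for Nlgn3 (1.24 to 2.39, median 1.69) and in 19 for Lrrtm2 (1.22 to 2.97, median 1.77). It was above 1 in 18 cultures for Nrxn2 (0.963 to 1.75, median 1.48), in 18 for Nlgn2 (0.999 to 1.56, median 1.36) and in 18 for Lrrtm1 (0.901 to 2.21, median 1.51). Nlgn1 had 16 cultures above 1 (0.630 to 1.84, median 1.27). Nrxn3 had 13 (0.736 to 1.39) and a median ratio of 1.05, and its cultures lay on both sides of 1. The share of all genes with such counts of cultures was not determined, so the counts alone do not set the members apart.

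**Figure D2:**
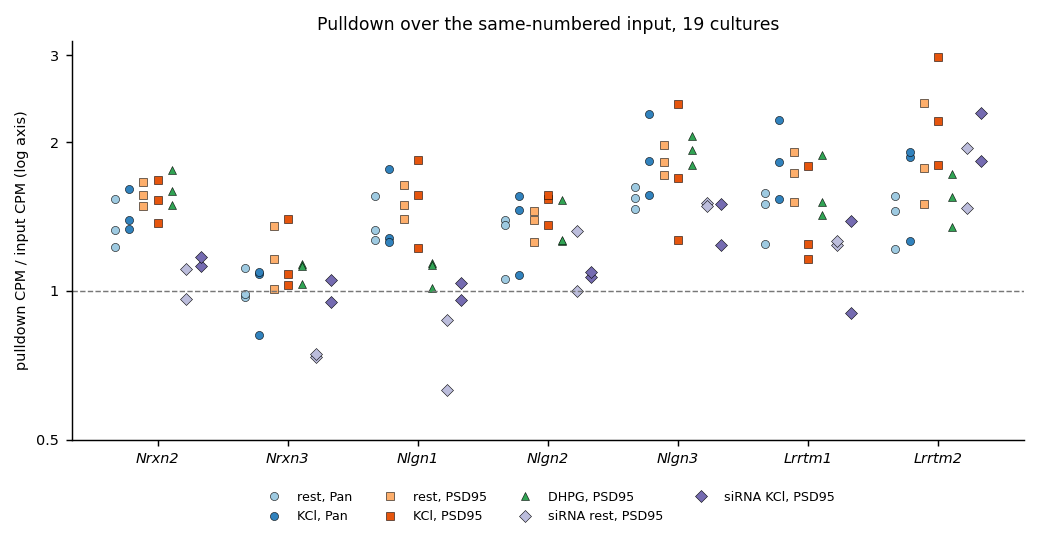
Pulldown CPM divided by the CPM of the same culture's input for each gene, on a log axis, with 1 point per culture (19 cultures) and colours for virus and state. Every culture lies above 1 for Nlgn3 and Lrrtm2, whereas Nrxn3 spans 0.736 to 1.39 around 1.

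At rest with TurboID-PSD95, Lrrtm2, an organizer of excitatory synapses, had 31, 29.6 and 24.4 CPM in the 3 inputs and 54.8, 44.3 and 58.6 in the pulldowns. All 3 pulldowns lay above all 3 inputs, a log2 difference of 0.92 (SE 0.23, FDR 0.00907). Differences between groups here and in what follows were tested with edgeR's quasi-likelihood test over all genes, with FDR for the Benjamini-Hochberg adjusted p and a gene called at an FDR below 0.05. Fitted log2 differences rest on edgeR's TMM scaling of libraries and not on CPM, so they can differ from the CPM printed beside them. Nlgn3 counted 247, 197 and 264 CPM in inputs and 423, 360.2 and 519.7 in pulldowns, with no overlap, and rose by 0.91 (SE 0.26, FDR 0.0143). Lrrtm1 stood at 34.0, 51.0 and 43.7 CPM in inputs and 58.9, 77.1 and 83.5 in pulldowns, again with no overlap, a rise of 0.80 (SE 0.25, FDR 0.0239). The fourth gene called was Nrxn2, whose protein is presynaptic, with 644, 747 and 825 CPM in inputs and 955, 1165 and 1369.7 in pulldowns and a rise of 0.69 (SE 0.20, FDR 0.0170). The other members missed the threshold, at 0.62 (SE 0.25, FDR 0.0722) for Nlgn1, 0.49 (SE 0.22, FDR 0.0945) for Nlgn2 and 0.27 (SE 0.25, FDR 0.453) for Nrxn3. Nrxn3 overlapped between inputs (356, 496 and 517 CPM) and pulldowns (413, 670.2 and 521 CPM). Of all 13003 genes tested, 11.5% were called higher and 13.5% lower in the same comparison. The 4 calls became 5 without replicate 1, 1 (Lrrtm2) without replicate 2 and 0 without replicate 3, where the FDR ranged from 0.170 for Nlgn3 to 0.265 for Lrrtm1.

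Depolarized TurboID-PSD95 cultures gave 3 calls, for Lrrtm2, Nlgn3 and Nrxn2. Lrrtm2 had 34.1, 29.3 and 42.0 CPM in inputs and 101, 64.6 and 75.3 in pulldowns, the highest difference of the 7 genes at 1.23 (SE 0.24, FDR 0.00575), or 2.35-fold. Nlgn3 had 271, 201 and 198 CPM in inputs and 458, 254 and 473 in pulldowns, so that the second pulldown lay below the first input, with a fitted rise of 0.87 (SE 0.26, FDR 0.0300). Nrxn2 rose by 0.65 (SE 0.20, FDR 0.0363). Nlgn2 was at 0.62 (SE 0.22, FDR 0.0592), Nlgn1 at 0.62 (SE 0.26, FDR 0.101), Lrrtm1 at 0.51 (SE 0.26, FDR 0.189) and Nrxn3 at 0.25 (SE 0.25, FDR 0.522), none of them called. Over all genes 8.21% were called higher. Without replicate 3 none of the 7 was called (Lrrtm2 FDR 0.138, Nlgn3 0.334, Nrxn2 0.325), without replicate 1 Nrxn2 (0.0568) and Nlgn3 (0.0564) lost the call, and without replicate 2 Nrxn2 (0.0883) did. Astrocyte markers summed to 640.0 to 667 CPM in these inputs and 861 to 913 in the pulldowns, with no overlap, and their part in these rises was not tested.

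With Pan-TurboID, Nlgn3, Lrrtm1 and Lrrtm2 rose in pulldowns of depolarized cultures. At rest none of the 7 was called by edgeR or DESeq2, though 4 had an unadjusted edgeR p below 0.05, with values from 0.09 for Nrxn3 to 0.67 (SE 0.26, FDR 0.0873) for Nlgn3, while 9.54% of all genes were called, 4.52% higher. In depolarized cultures Nlgn3 counted 295, 229 and 146 CPM in inputs and 461, 419 and 333 in pulldowns and rose by 0.91 (SE 0.26, FDR 0.0355). Lrrtm1 went from 15.2, 26.4 and 24.9 CPM in inputs to 33.6, 40.6 and 45.2 in pulldowns (0.88, SE 0.26, FDR 0.0406), and Lrrtm2 from 42.7, 51.2 and 31.9 to 79.8, 64.7 and 61.0 CPM (0.76, SE 0.23, FDR 0.0426). For these 3 genes every pulldown lay above every input. Against them stood 5.13% of all genes called higher. All 3 calls were lost without replicate 2 or without replicate 3 (FDR 0.144 and 0.250 for Nlgn3), and without replicate 1 Nlgn3 alone was called (0.0357). Lrrtm2 also lost its call with no filter (0.76, FDR 0.0572). Nrxn2 was at 0.57 (SE 0.20, FDR 0.0702) and Nrxn3 at 0.01 (SE 0.25, FDR 0.987).

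Input and pulldown were taken from the same culture, and a fit that kept the culture as a block called 6 of the 7 genes, all except Nrxn3, in each of the 4 arms of the KCl experiment, where the fit without the block called 4, 3, 0 and 3. In that fit Lrrtm2 was at 0.91 (FDR 3.69e-04) and 1.21 (FDR 2.61e-05) in resting and depolarized TurboID-PSD95 cultures and at 0.53 (FDR 0.0278) and 0.76 (FDR 0.00262) in Pan-TurboID cultures. Nlgn2, which marks inhibitory synapses, was at 0.48 (FDR 0.00314), 0.61 (FDR 6.24e-04), 0.38 (FDR 0.0215) and 0.49 (FDR 0.00457) in the same order. Nrxn3 was at 0.26 (FDR 0.0952), 0.26 (FDR 0.109), 0.08 (FDR 0.677) and 0.04 (FDR 0.852). With the replicate number alone as a block, the calls gained were Nlgn1 at rest (FDR 0.0409) and Nlgn1 (0.0492) and Nlgn2 (0.0371) after KCl with TurboID-PSD95, and Nlgn3 at rest (0.0474) and Nrxn2 after KCl (0.0480) with Pan-TurboID. The share of all genes called higher was then 14.1% and 12% with TurboID-PSD95 and 8.61% and 9.9% with Pan-TurboID, at rest and after KCl. With the culture as the block it was 19.3%, 17.2%, 15.4% and 16.3%.

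Whether the pulldown was made around PSD95 or in the whole cell was tested as the difference of both enrichments, with resting and depolarized cultures together. Without a block for the culture, none of the 7 genes was called by edgeR or DESeq2 or had an unadjusted p below 0.05. Of all 13003 genes 1 was called (0.00769%). The estimates ran from −0.07 to 0.43, and the highest was that of Lrrtm2 with a 95% interval of −0.03 to 0.88 (FDR 1.00). For Nlgn3 the interval was −0.40 to 0.61 and for Nrxn2 −0.25 to 0.54. With the culture as the block Lrrtm2 was at 0.41 (SE 0.19, FDR 0.932), so its 95% interval lay above 0, though it was not called. For every other member the interval in that fit held 0, and none was called. The values that follow are again without the block. Enrichment with TurboID-PSD95 did not differ detectably between KCl and rest for any member (0 of 7 at an unadjusted edgeR p below 0.05, and 0.0% of all genes called by edgeR's quasi-likelihood test, where DESeq2 called 1), with an interval of −0.33 to 0.96 for Lrrtm2 and −1.01 to 0.42 for Lrrtm1.

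Pulldown over input was related to CDS length over all genes, so the calls were repeated after the trend of the log2 difference on CDS length was subtracted. Lrrtm2 was then the 1 member called at rest with TurboID-PSD95 (0.84, FDR 0.0255) and the 1 called after KCl (1.14, FDR 0.0162), with none for Pan-TurboID in either state. Of the calls lost, Lrrtm1 had 0.72 (FDR 0.0654) and Nlgn3 0.64 (FDR 0.0755) at rest with TurboID-PSD95, and Nlgn3 0.54 (FDR 0.178) after KCl. With Pan-TurboID after KCl Lrrtm1 had 0.77 (FDR 0.108), Lrrtm2 0.67 (FDR 0.120) and Nlgn3 0.61 (FDR 0.154). The share of all genes called higher was then 5.81% and 2.16% for TurboID-PSD95 and 0.523% and 0.369% for Pan-TurboID. Nrxn3, the gene with the second longest CDS of the 7, turned to −0.18 and −0.23 for TurboID-PSD95 and −0.28 and −0.43 for Pan-TurboID at rest and after KCl, and Nrxn2 went from 0.69 to 0.22 (FDR 0.527) at rest and from 0.65 to 0.12 (FDR 0.790) after KCl with TurboID-PSD95.

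In the KCl experiment footprints also lay further along the CDS in pulldowns. The CDS was split into an earlier and a later part at the exon border nearest its middle, and the density (footprints per length) of the later part was divided by that of the earlier part. The earlier part had 2515 of 5112 nt in Nrxn2 and 2395 of 4716 nt in Nrxn3, but 919 of 2532 nt in Nlgn1, 1037 of 2511 nt in Nlgn2 and 904 of 2538 nt in Nlgn3. In the 12 cultures of the KCl experiment this quotient was higher in the pulldown than in the input by a mean log2 of 1.31 (SD 0.44, n = 12) for Nlgn3 and 1.20 (SD 0.19) for Nlgn2, in all 12 cultures for both genes. Nlgn1 was at 0.87 (SD 0.41, 11 of 12 cultures), Nrxn2 at 0.50 (SD 0.16, 12 of 12) and Nrxn3 at 0.22 (SD 0.23, 10 of 12). Over all 19 cultures, those with DHPG and siRNA included, the earlier, shorter part of Nlgn3 held a median of 33.5% of CDS footprints in inputs and 18.8% in pulldowns. For Nlgn2 these medians were 50.8% and 33.9%. For the neurexins the medians over the same 19 cultures were 53.2% and 44.1% for Nrxn2 and 51.5% and 49.3% for Nrxn3. For the mean log2 change in the 12 cultures of the KCl experiment, 10657 genes with enough footprints had a median of 0.93, with quartiles of 0.46 and 1.43. Of these genes 32.6% were higher in all 12 cultures. Over all 19 cultures the pulldown was the higher in 19 for Nlgn3 and Nrxn2, 18 for Nlgn2, 15 for Nlgn1 and 14 for Nrxn3. In the 4 knockdown cultures the difference ran from −0.92 to 0.72 for Nlgn1 and −0.25 to 0.18 for Nrxn3, below 0 in 3 of the 4 for both. Set against all genes in the KCl experiment, the 3 neuroligins lay between the quartiles of all genes, Nrxn2 near the lower quartile and Nrxn3 below it. The measure was chosen after values were seen and has no test, and the LRRTMs, whose CDS lies in 1 or 2 segments, were not split.

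**Figure D3:**
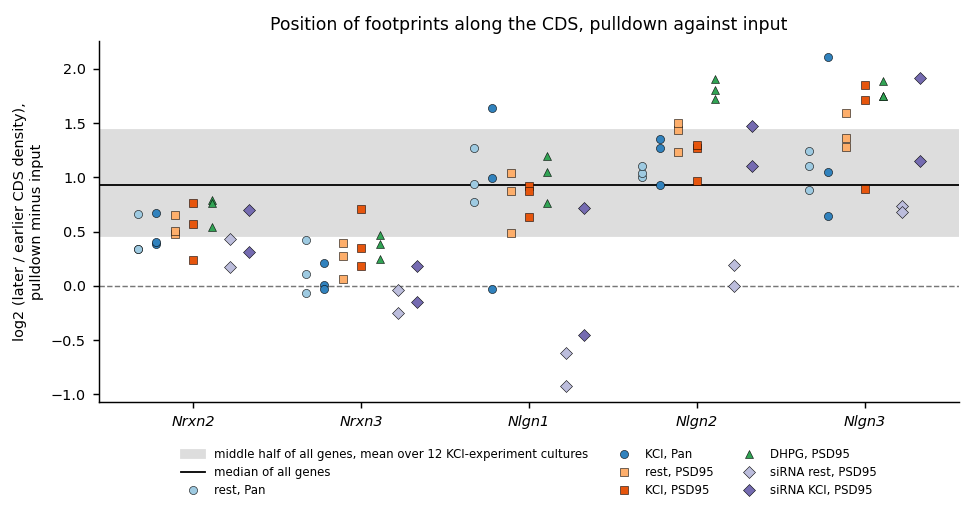
Log2 of later over earlier CDS density, pulldown minus input of the same culture, for the 5 genes that could be split, with 1 point per culture (19 cultures). The line and the grey band are the median (0.93) and the quartiles (0.46 to 1.43) over all genes of the mean over 12 cultures of the KCl experiment, and Nrxn3 lies below the band in most cultures.

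In inputs, Lrrtm1 and Nrxn3 fell with KCl, and the other 5 members were not called. Lrrtm1 had 51.4, 54.2 and 48.8 CPM in resting Pan-TurboID inputs and 15.2, 26.4 and 24.9 after KCl, and 34.0, 51.0 and 43.7 against 33.3, 21.7 and 21.7 CPM in TurboID-PSD95 inputs. All 6 depolarized inputs were below all 6 resting inputs, and the log2 change was −0.95 (SE 0.18, FDR 6.87e-04), or 1.93-fold. Nrxn3 went from 424, 524 and 525 to 373, 312 and 205 CPM in Pan-TurboID inputs and from 356, 496 and 517 to 274, 217 and 259 CPM in TurboID-PSD95 inputs. Its log2 change was −0.76 (SE 0.18, FDR 0.00386), lower in 6 of 6 same-numbered pairs, with the highest depolarized input above the lowest resting one. Among all genes 6.33% were called higher and 9.02% lower. Without replicate 3 neither was called (Lrrtm1 FDR 0.0649, Nrxn3 0.173), without replicate 2 Nrxn3 was not (0.127), and without replicate 1 a total of 4 members were called.

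Nrxn2, the neuroligins and Lrrtm2 were not called in inputs. Nrxn2 was lower after KCl in 5 of 6 pairs (−0.40, SE 0.14, FDR 0.0611), with an FDR of 0.0484 once the replicate number was a block, where 11.2% of all genes were called lower. Nlgn2 was lower in 5 of 6 pairs as well (−0.43, SE 0.15, FDR 0.0590). Nlgn1 was at 0.23 (SE 0.18, FDR 0.424) and Nlgn3 at −0.11 (SE 0.18, FDR 0.742), each with 3 of 6 pairs higher. The 95% interval of Nlgn3 was −0.46 to 0.25 and that of Nlgn1 −0.12 to 0.59, and both genes changed sign when 1 replicate number was left out. Lrrtm2 was higher in 4 of 6 pairs, at 0.28 (SE 0.17, FDR 0.269).

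In pulldowns Lrrtm1 fell after KCl with both viruses, and Nrxn3 with TurboID-PSD95. With TurboID-PSD95, Lrrtm1 had 58.9, 77.1 and 83.5 CPM at rest and 41.4, 25.1 and 38.8 after KCl (−1.05, SE 0.26, FDR 0.0147), and Nrxn3 had 413, 670.2 and 521 and 282, 303 and 280.4 CPM (−0.88, SE 0.25, FDR 0.0332). In neither gene did the states overlap, and Nrxn3 lost the call with the CDS length trend removed (−0.63, FDR 0.157). Over all genes 3.28% were called lower here, and both calls were lost without replicate 2 (0.30 and 0.375) or replicate 3 (0.235 and 0.232). With Pan-TurboID, Lrrtm1 went from 63.9, 81.0 and 77.0 to 33.6, 40.6 and 45.2 CPM (−0.84, SE 0.25, FDR 0.0497) against 3.15% of all genes called lower, a call lost without replicate 2 (0.298) or 3 (0.421) and with other size factors (−0.83, FDR 0.0547), no filter (−0.84, FDR 0.0607) or the CDS length trend removed (−0.73, FDR 0.111). Nrxn3 went from 411, 583 and 518 to 304, 338 and 223 CPM (−0.74, SE 0.25, FDR 0.0854). Neuronal markers summed to 8375 to 9276 CPM at rest and 7258 to 7802 after KCl in TurboID-PSD95 pulldowns, with no overlap, and to 9669 to 10198 and 8581 to 10805 in Pan-TurboID pulldowns, with overlap, and their part in these falls was not tested. Lrrtm2 was higher after KCl in all 6 pulldown pairs, at 0.64 (SE 0.23, FDR 0.0930) with TurboID-PSD95 and 0.48 (SE 0.23, FDR 0.257) with Pan-TurboID, and passed the test in neither.

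**Figure D4:**
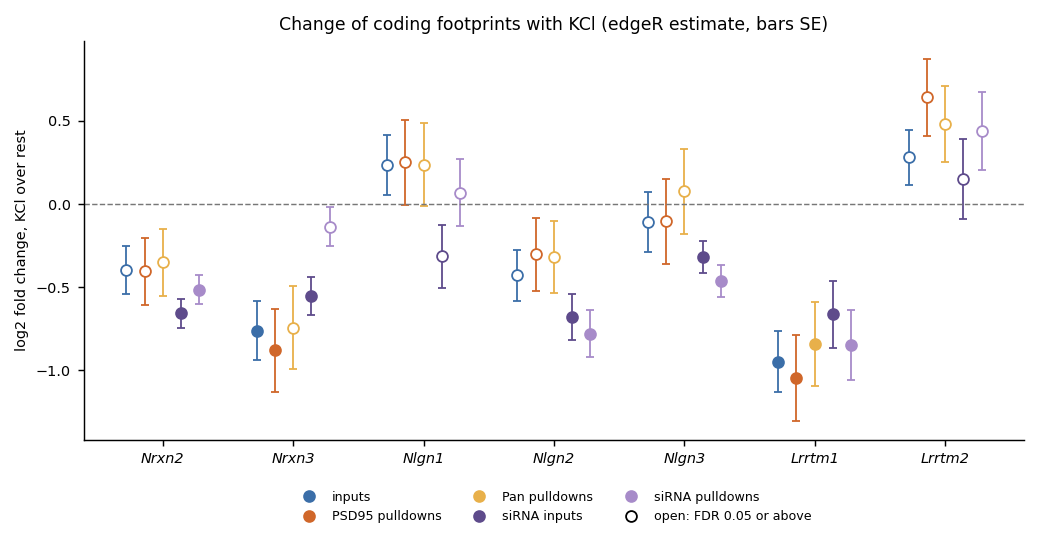
Log2 change of CDS footprints with KCl for each gene, as fitted by edgeR, with SE bars, for inputs, both kinds of pulldown, and knockdown inputs and pulldowns, and filled points for an FDR below 0.05. Lrrtm1 is below 0 in all 5 comparisons (−1.05 to −0.66), Nrxn3 is below 0 in all 5, and Lrrtm2 is above 0 in all 5 (0.15 to 0.64) without a call.

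The opposite signs of both LRRTMs can be read within a library, free of scaling, as the footprint density of Lrrtm2 over that of Lrrtm1. At rest the log2 quotient in 6 inputs was −0.52 (SD 0.27), from −0.82 to −0.11, so that Lrrtm1 was the denser gene in each of them. After KCl it was 0.72 (SD 0.53), from 0.06 to 1.51, and Lrrtm2 was the denser gene in all 6, a shift of 1.24 or 2.36-fold. The 6 pulldowns went from −0.47 (SD 0.24) to 1.01 (SD 0.38), a shift of 1.49 or 2.80-fold, also with no overlap. In the knockdown experiment the 4 resting libraries averaged −1.11 and the 4 depolarized ones −0.08, a shift of 1.03. This quotient was chosen after the values of both genes were seen, and it is given as a description with no test.

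Within the neurexins, footprints were split into exons found in the alpha form only and exons shared by the alpha and beta forms. In Nrxn2, 16 segments of 3382 nt were alpha only (122456 footprints) and 6 segments of 1730 nt were shared (69460 footprints), and in Nrxn3 14 segments of 3262 nt (56352 footprints) and 6 segments of 1454 nt (23289 footprints). In inputs the shared over alpha-only density of Nrxn3 averaged 0.982 at rest (0.894 to 1.18, n = 6) and 1.29 after KCl (1.14 to 1.40, n = 6). The log2 difference of 0.40 had an exact two-sided permutation p of 0.00433 and an adjusted p of 0.0346 over the 8 tests on neurexins. These permutation tests treat libraries as independent and ignore the replicate numbers that both viruses and states share. At rest the deviations of same-numbered Pan-TurboID and TurboID-PSD95 inputs from their group means correlated at 0.38 to 0.63 over genes. The highest resting library lay within the range of the depolarized ones. Alpha-only exons went from 329.8 ± 47.7 CPM (SD, n = 6) to 174 ± 40.2 CPM, and shared exons from 144 ± 25.5 to 99.5 ± 23.1 CPM, so both were lower after KCl and the alpha-only exons by more. Leaving out each replicate number in turn left 4 libraries against 4, with differences of 0.39 to 0.40 and adjusted p of 0.114 to 0.457. Without replicate 2 or 3 the exact permutation p was 0.0286, the smallest that 4 against 4 allows. These smaller sets could therefore hardly pass after adjustment over the 8 tests, whatever the values. In pulldowns the density quotient of Nrxn3 went from 0.937 (0.816 to 1.07) to 1.30 (0.893 to 1.79), a log2 difference of 0.44 (exact permutation p = 0.0216, adjusted 0.0866). Without the first CDS exon these differences were 0.37 in inputs and 0.46 in pulldowns, with an adjusted exact permutation p of 0.0260 for each.

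For Nrxn2 no difference was detected, with a quotient of 1.02 at rest and 1.03 after KCl in inputs (log2 difference 0.00, exact permutation p = 0.985), and the pulldowns differed by −0.04 (exact permutation p = 0.669). The difference between the genes was not tested. Over 1661 genes with a CDS above 3000 nt, split near 0.7 of the length, the KCl shift of the later over the earlier part had a median of −0.13 in inputs (quartiles −0.42 and 0.14) and −0.08 in pulldowns (−0.33 and 0.15). The quotient of Nrxn3 was lower in the other experiments: 0.601 to 0.757 over 6 DHPG libraries and 0.561 to 0.853 over 8 knockdown libraries, against 0.816 to 1.79 over the KCl experiment. Knockdown inputs had 0.840 and 0.853 at rest and 0.837 and 0.757 after KCl, so the higher quotient after KCl was not seen there, with 240 to 1244 alpha-only footprints a library and no test.

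**Figure D5:**
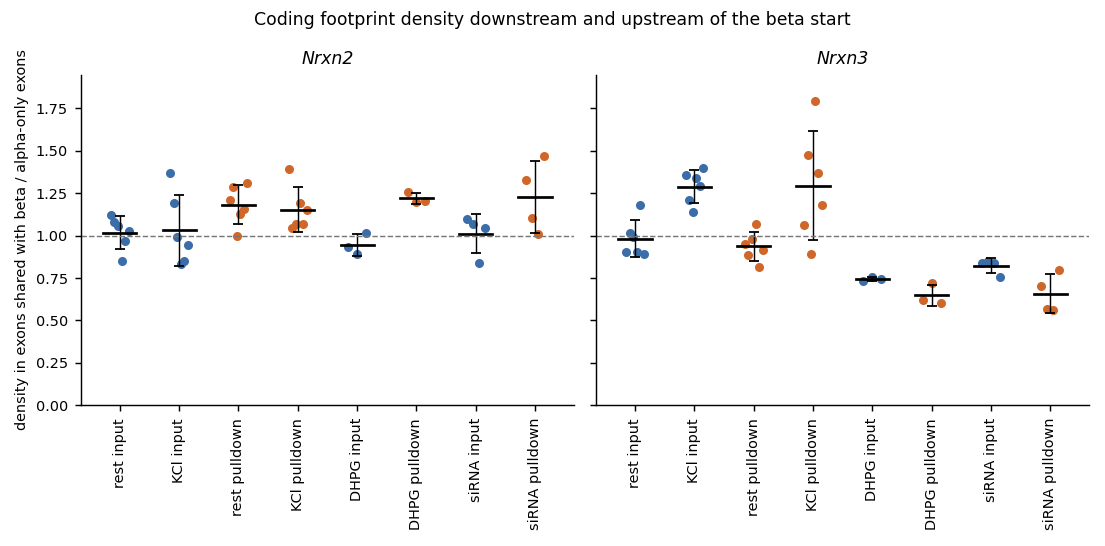
Footprint density of shared exons over that of alpha-only exons for Nrxn2 and Nrxn3, with 1 point per library, by state and by input or pulldown. For Nrxn3 the depolarized inputs (1.14 to 1.40) lie above most resting inputs (0.894 to 1.18), and Nrxn2 is near 1 in both states (1.02 and 1.03).

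The first exon of the beta form has its own coding stretch, 253 nt at chr19:6498279-6498531 in Nrxn2 and 241 nt at chr12:89813400-89813640 in Nrxn3, and its footprints are few. In resting inputs Nrxn3 had 72 of them beside 11854 in alpha-only exons, a share of 0.604% of both together (exact 95% binomial interval 0.473% to 0.760%), and in depolarized inputs 87 beside 5515, or 1.55% (1.25% to 1.91%). Its pulldowns held 28 beside 14809 (0.189%) at rest and 54 beside 6658 (0.805%) after KCl. For Nrxn2 the share was 0.894% (0.764% to 1.04%) in resting inputs and 1.60% (1.39% to 1.84%) in depolarized inputs, and 0.503% and 1.04% in pulldowns. Shares were thus higher after KCl in both genes and both fractions, although the intervals pool 6 libraries and cover counting error only. In knockdown libraries Nrxn3 had 5 such footprints beside 4348 (0.115%, interval 0.0373% to 0.268%), against 0.617% (0.542% to 0.699%) over the KCl experiment, while Nrxn2 had 1.79% (1.56% to 2.05%) against 0.900%. Beta footprints on the shared exons cannot be told from alpha footprints there.

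Inclusion of the splice site 4 exon, printed above, did not differ detectably between states. It is CDS segment 19 of Nrxn2 (chr19:6513716-6513805, 2186 footprints, present in 6 annotated transcripts and skipped in 2) and segment 17 of Nrxn3 (chr12:90199147-90199236, 552 footprints, 5 and 2 transcripts). In inputs its density over that of its flanking exons averaged 0.419 at rest and 0.347 after KCl in Nrxn2 (n = 6 each, exact permutation p = 0.494), and 0.316 and 0.336 in Nrxn3 (p = 0.790, exact permutation). In pulldowns Nrxn2 went from 0.648 to 0.495 (exact permutation p = 0.160, adjusted 0.427) and Nrxn3 from 0.228 to 0.230 (exact permutation p = 0.978). As a share of exon and flank footprints pooled over the 6 libraries of a group, with intervals that cover counting error only and leave out the spread between libraries, Nrxn2 had 7.80% (exact 95% interval 6.84% to 8.84%) in resting inputs and 10.7% (9.98% to 11.5%) in resting pulldowns, and Nrxn3 5.92% (4.91% to 7.06%) and 4.58% (3.82% to 5.44%). Footprints that cross the borders of a short exon can be lost in alignment, so the level of this density says little by itself and only libraries are compared.

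Neuroligins carry short alternative exons in their extracellular part, with few footprints. The 60-nt segment of Nlgn1 at chr3:25920178-25920237 had 46 footprints over all libraries, a density of 17.6% of that of its neighbours. Nlgn3 has 2 such segments, at chrX:101303072-101303131 (197 footprints, 16.8%) and chrX:101307075-101307134 (343 footprints, 23.0%). In resting inputs the first stood at 37.1% (84 footprints) and the second at 48.1% (127), and in depolarized inputs at 22% (37) and 13.5% (26). These were picked out after the values were seen and are given with no test.

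In the untranslated regions, Nrxn3 and Nlgn1 had the fewest upstream footprints for their CDS of the 7, in inputs as in pulldowns of the KCl experiment by their medians. Footprint density in the 5′ UTR, pooled over the inputs and pulldowns of all 38 libraries, was 206% of the CDS density for Nrxn2, 165% for Lrrtm2 and 121% for Nlgn2. It was 93.2% for Lrrtm1 and 77.4% for Nlgn3, and only 28.7% for Nrxn3 and 26.8% for Nlgn1, where the median of 10710 genes was 126% (quartiles 62.6% and 220.3%). Inputs and pulldowns differed in this quotient, and in the input medians of the KCl experiment, given after the 3′ UTR values, Lrrtm1 stood above Nlgn2 and Nlgn1 beside Nrxn3. In the 3′ UTR the density was 4.25% of that of the CDS for Nrxn2, 1.26% for Nlgn2 and 0.966% for Lrrtm1, and between 0.0618% (Nlgn1) and 0.227% (Nlgn3) for the other members, with a median of 0.533% over 10854 genes. Footprints are placed by their 5′ end, so ribosomes on the first codons count in the 5′ UTR.

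Pulldowns held less of this upstream density than inputs for every member. In the 12 inputs of the KCl experiment the 5′ UTR density of Nlgn3 was 116% to 394% of its CDS density, with a median of 210.1%, and in the 12 pulldowns 7.14% to 156%, with a median of 26.9%. For Lrrtm1 the medians were 264% in inputs and 55.6% in pulldowns, for Lrrtm2 372% and 78.3%, and for Nrxn2 416% and 87.4%. Nlgn2 had medians of 211% and 62.5%, Nrxn3 of 43.7% and 15.4%, and Nlgn1 of 44.0% and 10.0%. For each of the 7 genes the pulldown was below its own input in 19 of 19 cultures. The share of all genes that were lower in all 19 was not determined, so this count alone does not set the members apart. Pooled pulldown density was 17.5% of pooled input density for Nlgn3, 24.6% for Lrrtm1, 26.7% for Nrxn2, 27.3% for Nlgn1, 27.7% for Lrrtm2, 34.2% for Nlgn2 and 36.3% for Nrxn3, and over 9867 genes with at least 50 input footprints in the 5′ UTR the median was 41.9% (quartiles 29.6% and 59.3%). All members were below that median, 5 of them below the lower quartile, and no test was made. With KCl no 5′ UTR of a member was called, in inputs (0.443% of 10147 genes called) or TurboID-PSD95 pulldowns (0.286%) by edgeR, where 0 and 3 members had an unadjusted p below 0.05. With the library scaling of the CDS counts, 6 of the 7 estimates were above 0 in inputs and all 7 in these pulldowns. Their median log2 changes were 0.27 and 0.64, beside 0.17 and 0.65 over all genes, so the members moved with the general rise.

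After DHPG all 7 members were called higher in pulldowns than in inputs, in a comparison where 40.5% of 12257 genes were called higher and 39.3% lower. Nlgn3 had 339, 335 and 323 CPM in inputs and 653, 601 and 665 in pulldowns, a rise of 1.15 (SE 0.06, FDR 4.52e-12). Nrxn2 rose by 0.90 (SE 0.06, FDR 7.72e-11), Lrrtm1 by 0.89 (SE 0.08, FDR 1.61e-08), Lrrtm2 by 0.83 (SE 0.11, FDR 1.94e-06) and Nlgn2 by 0.64 (SE 0.07, FDR 6.51e-08). The smallest rises were those of Nrxn3, from 313, 299 and 301 to 324, 339 and 338 CPM (0.34, SE 0.06, FDR 2.54e-05), and Nlgn1, from 75.6, 74.7 and 78.6 to 86.0, 84.2 and 79.6 CPM (0.33, SE 0.08, FDR 5.52e-04). These fitted rises use edgeR's scaling, and on the CPM scale the mean log2 rises were smaller, at 0.132 for Nrxn3 and 0.126 for Nlgn1. Replicates of this experiment lay close together, and for each gene no pulldown overlapped an input. For Nlgn1 the highest input (78.6 CPM) was just below the lowest pulldown (79.6 CPM). The share of all genes without overlap was not determined, and with so many genes called it may be large. With the CDS length trend subtracted Nrxn3 turned to −0.45 (FDR 1.34e-06) and Nlgn1 to −0.12 (FDR 0.167), Nrxn2 lost its call at 0.07 (FDR 0.332), and Nlgn2 went to 0.20 (FDR 0.0163), in a fit that called 35.8% of all genes higher and 32.5% lower. Neuronal markers summed to 10589 to 10759 CPM in inputs and 9254 to 9357 in pulldowns, astrocyte markers to 226 to 239 and 254 to 269, and oligodendrocyte lineage markers to 44.5 to 47.9 and 21.5 to 29, each with no overlap, and their part in these differences was not tested.

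Against resting TurboID-PSD95 cultures of the KCl experiment, the low member Lrrtm1 had 65.5, 68.0 and 59.8 CPM in DHPG inputs and 34.0, 51.0 and 43.7 at rest, and Nrxn3 313, 299 and 301 and 356, 496 and 517 CPM. In neither gene did the groups overlap. DHPG inputs were higher in Lrrtm1 (0.70, SE 0.17, FDR 0.00494), Nlgn1 (0.64, SE 0.13, FDR 0.00112), Nlgn3 (0.60, SE 0.12, FDR 0.00152) and Lrrtm2 (0.51, SE 0.15, FDR 0.0180) and lower in Nrxn3 (−0.48, SE 0.17, FDR 0.0403). Nrxn2 at 0.16 (SE 0.13, FDR 0.379) and Nlgn2 at 0.30 (SE 0.15, FDR 0.120) were not called. With the replicate number as a block Nlgn2 had an FDR of 0.0407, beside 17.5% of all genes called higher in that fit, and no source ties the numbers of one experiment to those of the other. Over all genes 16.3% were called higher and 16.5% lower. Nrxn3 and Lrrtm2 lost the call without replicate 2 (FDR 0.164 and 0.0854) or replicate 3 (0.317 and 0.107), and Nrxn3 also with other size factors (−0.44, FDR 0.0579), with no filter (−0.40, FDR 0.0870) and with the CDS length trend removed (−0.36, FDR 0.208). In pulldowns all 7 were called, Nrxn3 lower (−0.45, SE 0.17, FDR 0.0389) and the others higher, from 0.32 for Nlgn1 to 0.80 (SE 0.12, FDR 6.39e-05) for Nlgn3, beside 21.7% and 26.0% of all genes. In CPM, however, DHPG and resting pulldowns overlapped for Nrxn2 (1171 to 1346 and 955 to 1369.7), Nlgn1 (79.6 to 86.0 and 73.3 to 89.9), Nlgn2 and Lrrtm2. Mean CPM was 83.3 and 78.9 for Nlgn1 and 1238 and 1163 for Nrxn2, so for both the fitted rise was larger than that in CPM. Only Nlgn3 and Lrrtm1 were called under every alternative tried, and without replicate 2 they were the 2 left. Nrxn3 lost this call with DESeq2 (−0.40, FDR 0.0523), other size factors (−0.40, FDR 0.0626) or no filter (−0.40, FDR 0.0688), and Nrxn2, Nlgn1 and Nlgn2 with the CDS length trend removed (0.16, FDR 0.454 for Nrxn2, 0.24, FDR 0.176 for Nlgn1 and 0.32, FDR 0.125 for Nlgn2). With the transcript of the highest count Nrxn2 (0.30, FDR 0.0659), Nlgn1 (0.30, FDR 0.0572) and Lrrtm2 (0.36, FDR 0.0517) lost it, and Nrxn2 did with the likelihood ratio test (0.32, FDR 0.0553). Neuronal markers summed to 10589 to 10759 CPM in DHPG inputs against 8700.2 to 9665 at rest, with no overlap, and to 9254 to 9357 against 8375 to 9276 in pulldowns, with overlap. Astrocyte markers summed to 226 to 269 CPM in DHPG libraries and 564 to 1511 CPM in the KCl experiment, and oligodendrocyte lineage markers to 21.5 to 47.9 and 89.6 to 609 CPM. Their part in these differences was not tested, and in bulk cultures fewer cells of a type and fewer footprints per cell cannot be told apart.

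In the knockdown cultures the pulldown over input pattern was uneven. At rest Lrrtm2 rose from 24.0 and 29.3 CPM in the 2 inputs to 46.6 and 43.1 in the pulldowns (0.87, SE 0.23, FDR 0.00350) and Nlgn3 from 309.7 and 325 to 465 and 483 CPM (0.69, SE 0.09, FDR 1.42e-06). Nrxn3 fell from 219 and 219 to 161 and 163 CPM (−0.32, SE 0.11, FDR 0.0214), a call that was lost without either input library or without the first pulldown (FDR 0.124, 0.131 and 0.0579) and with DESeq2 (−0.29, FDR 0.0574). Nlgn1 was at −0.28 (SE 0.19, FDR 0.224), Nrxn2 at 0.16 (SE 0.08, FDR 0.130), Nlgn2 at 0.32 (SE 0.13, FDR 0.0534) and Lrrtm1 at 0.42 (SE 0.19, FDR 0.0781), and with the culture as a block Nlgn2 was called as well (0.0413), beside 21.2% of all genes called higher. The call of Lrrtm2 was lost without the first input (FDR 0.0718). After KCl Lrrtm2 rose by 1.16 (SE 0.25, FDR 3.51e-04), Nlgn3 by 0.54 (SE 0.10, FDR 6.26e-05) and Nrxn2 by 0.30 (SE 0.09, FDR 0.00657). With the CDS length trend subtracted Nrxn2 was called lower in pulldowns, at −0.57 (FDR 1.02e-05) at rest and −0.46 (FDR 2.59e-04) after KCl, Nrxn3 was called lower in both states (−1.01 (FDR 1.15e-07) and −0.62 (FDR 2.11e-04)) and Nlgn1 at rest (−0.59, FDR 0.0145), and Nlgn3 lost its call after KCl at 0.15 (FDR 0.249). In that fit 16.4% of all genes were called higher and 16.7% lower at rest, and 18.2% and 17.3% after KCl. Without the trend subtracted, of all 12223 genes 22.1% were called higher and 23.4% lower at rest, and 24.0% and 24.8% after KCl. Neuronal markers summed to 9215 to 9447 CPM in inputs and 7320.1 to 7510.0 in pulldowns at rest, and to 7339 to 7490.0 and 5729.8 to 5776 after KCl. Oligodendrocyte lineage markers summed to 182 to 189.8 and 105 to 132 CPM at rest and to 176 to 192 and 86.0 to 105 after KCl. In both lists and states the pulldowns lay below the inputs with no overlap, and their part in the differences was not tested.

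With KCl, 5 members were called lower in knockdown inputs. Nrxn2 went from 638 and 613 to 395 and 389.9 CPM (−0.66, SE 0.09, FDR 3.17e-06) and Nlgn2 from 195 and 204 to 115 and 133 CPM (−0.68, SE 0.14, FDR 7.22e-04). Lrrtm1 (−0.66, SE 0.20, FDR 0.0213), Nrxn3 (−0.55, SE 0.11, FDR 7.88e-04) and Nlgn3 (−0.32, SE 0.10, FDR 0.0211) were called lower too, where 10.3% of all genes were called lower and 8.91% higher. The call of Nlgn3 was lost without any 1 of the 4 libraries and with DESeq2 (−0.27, FDR 0.0548), both Nlgn3 (−0.18, FDR 0.244) and Lrrtm1 (−0.53, FDR 0.0788) lost it with the CDS length trend removed, and Lrrtm1 without the second resting (0.350) or the second depolarized library (0.218). In knockdown pulldowns Lrrtm1 (−0.85, SE 0.21, FDR 0.00444), Nlgn2 (−0.78, SE 0.14, FDR 2.08e-04), Nrxn2 (−0.52, SE 0.09, FDR 8.29e-05) and Nlgn3 (−0.46, SE 0.10, FDR 9.10e-04) fell, beside 12% of all genes called lower and 10.2% higher, and Nrxn3 did not pass (−0.14, SE 0.12, FDR 0.460). Lrrtm1 lost this call without the second resting pulldown (0.0566). Neuronal markers summed to 9215 to 9447 CPM at rest and 7339 to 7490.0 after KCl in these inputs and to 7320.1 to 7510.0 and 5729.8 to 5776 in pulldowns, and astrocyte markers to 640.0 to 663 and 788 to 844 in inputs and 556 to 685 and 784 to 984 in pulldowns, all with no overlap. In these pulldowns microglial markers summed to 10.2 to 13.5 CPM at rest and 17.2 to 19.7 after KCl and oligodendrocyte lineage markers to 105 to 132 and 86.0 to 105, again with no overlap. Their part in these falls was not tested. The KCl responses with and without siRNA were compared as an interaction, and no member was called by edgeR or DESeq2 in inputs (0.00759% of 13180 genes) or pulldowns (0.448%), where the one unadjusted p below 0.05 was that of Nrxn3 in pulldowns (0.78, SE 0.31, FDR 0.421).

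Set beside TurboID-PSD95 cultures without siRNA, knockdown cultures had fewer footprints on both neurexins and, in 1 comparison, on Nlgn2. Nrxn3 had 219 and 219 CPM in resting knockdown inputs against 356, 496 and 517 without siRNA (−1.04, SE 0.22, FDR 0.00773), and 161 and 163 against 413, 670.2 and 521 CPM in resting pulldowns (−1.68, SE 0.23, FDR 3.64e-05). The pulldown difference was 3.21-fold. Nrxn2 fell in resting pulldowns, 614 and 678 against 955, 1165 and 1369.7 CPM (−0.80, SE 0.21, FDR 0.0196). In depolarized pulldowns Nrxn3 (−0.91, SE 0.23, FDR 0.00792), Nrxn2 (−0.88, SE 0.22, FDR 0.00706) and Nlgn2 (−0.71, SE 0.23, FDR 0.0330) were lower, and in depolarized inputs no member was called by this test, with 3 at an unadjusted p below 0.05 (for Nrxn3, which DESeq2 called, −0.74, SE 0.22, FDR 0.0542). The shares of all 13180 genes called lower were 2.0% and 2.12% in inputs and 4.96% and 10.9% in pulldowns, at rest and after KCl, and 5.29% were called in either direction in depolarized inputs. Calls in resting inputs were lost without any 1 replicate number (Nrxn3 FDR up to 0.389), and those in depolarized pulldowns without replicate 1 or 2 (0.0670 and 0.190 for Nrxn3), with Nlgn2 lost without replicate 3 as well (0.0926) and with other size factors (−0.65, FDR 0.0511). In resting pulldowns Nrxn2 lost its call without any 1 number, and Nrxn3 without replicate 2 (0.0612). Microglial markers summed to 10.2 to 25.7 CPM in knockdown libraries and 0 to 6.88 CPM in the KCl experiment. Neuronal markers summed to 7320.1 to 7510.0 CPM in resting knockdown pulldowns against 8375 to 9276 without siRNA and to 5729.8 to 5776 against 7258 to 7802 after KCl, with no overlap, and in inputs to 9215 to 9447 against 8700.2 to 9665 and 7339 to 7490.0 against 7322 to 8939, with overlap. Oligodendrocyte lineage markers summed to 182 to 189.8 CPM in resting knockdown inputs against 244 to 609, 105 to 132 against 135 to 503 in resting pulldowns and 86.0 to 105 against 115 to 215 in depolarized pulldowns, with no overlap, and 176 to 192 against 162 to 255 in depolarized inputs, with overlap. Astrocyte markers summed to 556 to 685 CPM in resting knockdown pulldowns against 700.0 to 1511 and to 788 to 844 in depolarized knockdown inputs against 640.0 to 667, with no overlap. The part of these markers in the differences was not tested. Tested as interactions, the enrichments of knockdown cultures were lower than those without siRNA in all 7 estimates in both states, and no member was called by edgeR or DESeq2 (1.03% and 0.0607% of all genes), the largest being Nlgn1 at rest (−0.96, SE 0.34, FDR 0.307), with 2 unadjusted p below 0.05 at rest and 0 after KCl. The median estimate of the members was −0.43 at rest and −0.35 after KCl. Over all genes it was also below 0, at −0.11 in both states.

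A list of 64 partners of these proteins (other adhesion receptors, their ligands and scaffolds) was followed in the same fits. Partner values are given without the CDS length trend subtracted, and the part of CDS length in them is not reported here. At rest with TurboID-PSD95, 13 of the 64 were called higher and 4 lower in pulldowns, beside 11.5% and 13.5% of all genes, with a median log2 difference of 0.23 against −0.05 over all genes. The teneurins Tenm4 (1.28, SE 0.29, FDR 0.00565) and Tenm2 (1.19, SE 0.27, FDR 0.00550), large adhesion proteins that bind latrophilins, and Lrfn2 (1.05, SE 0.24, FDR 0.00569), a PSD95-binding adhesion protein, rose. The scaffold proteins Lin7a (−1.32, SE 0.26, FDR 0.00341) and Lin7c (−0.84, SE 0.26, FDR 0.0229), which join CASK beneath neurexins, and the adhesion protein Cadm3 (−0.59, SE 0.18, FDR 0.0228) fell. After KCl 12 partners were called higher with TurboID-PSD95, and with Pan-TurboID 6 and 7 were called higher at rest and after KCl. Of all genes 8.21%, 4.52% and 5.13% were called higher in the same order. In each of these comparisons 0 partners were called lower, and the shares of all genes called lower are not reported here. With Pan-TurboID at rest 9.54% of all genes were called in either direction.

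With KCl, 22 of the 64 partners were called lower and 1 higher in inputs, beside 9.02% and 6.33% of all genes, with a median of −0.32 against −0.01 over all genes. The 3 lowest p-values belonged to Apba1 (−2.51, SE 0.16, FDR 2.72e-11), a presynaptic adaptor of the CASK complex, Adgrl1 (−2.0, SE 0.15, FDR 5.18e-10), a latrophilin, and Flrt2 (−1.77, SE 0.18, FDR 9.59e-08), an adhesion protein that binds latrophilins. All 3 were lower in 6 of 6 pairs. In pulldowns 11 partners were called lower with TurboID-PSD95 and 11 with Pan-TurboID, beside 3.28% and 3.15% of all genes. With either, 0 partners were called higher, and the shares of all genes called higher there are not reported here. In knockdown cultures 31 of 62 tested partners were called lower and 1 higher with KCl in inputs, and 29 lower and 3 higher in pulldowns, where 10.3% of all genes were called lower and 8.91% higher in inputs and 12% and 10.2% in pulldowns.

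After DHPG 36 of 64 partners were called higher and 20 lower in pulldowns than in inputs, beside 40.5% and 39.3% of all genes, among them Tenm2 (1.32, SE 0.05, FDR 3.34e-13) and the scaffold gene Dlgap1 (1.41, SE 0.07, FDR 4.66e-12) higher and Lin7c (−1.75, SE 0.09, FDR 4.78e-12) lower. DHPG inputs against resting inputs gave 15 higher and 12 lower, with Tenm1 (1.63, SE 0.10, FDR 4.24e-08) among the former, and pulldowns 22 and 20, where 16.3% and 16.5% of all genes were called in inputs and 21.7% and 26.0% in pulldowns. Pulldown over input in knockdown cultures gave 24 of 62 higher and 16 lower at rest, beside 22.1% and 23.4% of all genes, with Shank1, a postsynaptic scaffold, at 1.68 (SE 0.13, FDR 1.76e-10), and 26 and 14 after KCl, beside 24.0% and 24.8%. Against cultures without siRNA, knockdown inputs had 2 partners higher and 4 lower at rest and 1 and 8 after KCl, and pulldowns 7 and 11, and 4 and 15, where the shares of all genes called higher were 1.89%, 3.17%, 4.18% and 7.99% and called lower 2.0%, 2.12%, 4.96% and 10.9% in the same order. In resting inputs the neurexin ligand Nxph1 was lower (−1.98, SE 0.28, FDR 1.66e-04), as was Iqsec3 (−1.61, SE 0.28, FDR 0.00159), a protein of inhibitory synapses, and Mdga1 (1.67, SE 0.29, FDR 0.00137), which binds neuroligins and blocks their contact with neurexins, was higher.

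The genes whose pattern over the 14 group means was most like that of each member were sought among 5417 genes by Pearson correlation of mean log2 CPM, which describes these groups only, since they share libraries' depth and state. For Nrxn2 they were Gabbr2 (r = 0.966), a GABA-B receptor subunit, and Atp2b3 (0.957), a plasma membrane calcium pump, and for Nlgn2 Gabbr2 (0.961) and Pitpnm1 (0.960). For Nrxn3 the closest was Rasl11b (0.961). Nlgn3 was most like Cmip (0.974) and Abca3 (0.972), Lrrtm1 like Lrrc4b (0.972), another leucine-rich repeat adhesion gene, and Mgat5b (0.970), and Lrrtm2 like Clcn3 (0.952) and Abat (0.948). Nlgn1 was most like Pcdha1 (0.949) and Pcdha7 (0.942), protocadherins that share exons in a cluster, so that their counts are uncertain. Among the members themselves Nrxn2 and Nlgn2 were the closest pair (0.947). Both neurexins correlated at 0.783, the LRRTMs at 0.0778, and Nrxn3 with Nlgn3 at 0.0544.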

How the data were processed

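PL-Ribo-seq libraries of primary mouse cortical neurons (38 libraries in 14 groups, by the labels) were used. According to their methods, the authors trimmed and demultiplexed reads with Rfastp and fastq-multx, cut off 6-nt molecular identifiers, aligned reads to mm10 with Rsubread and counted footprint 5′ ends per exon segment with plastid, for reads of 25 to 100 nt and with no offset by the file headers. The deposited counts are whole numbers per CDS, 5′ UTR or 3′ UTR segment, with alignment names that mark removed rRNA and duplicates. The use of strand and of reads with several alignments is not given in the sources used here. Footprints across exon borders may be lost, so exon densities were compared between libraries only.

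Segment counts were summed over 1 transcript per gene, the longest, named through GENCODE release M21 on mm10 (66750 of 67238 coding transcripts). CDS counts were scaled to CDS totals (CPM). Counts were tested with edgeR 4.0.16 (limma 3.58.1, R 4.3.3): TMM factors, filterByExpr and robust quasi-likelihood tests, with Benjamini-Hochberg adjustment over all genes. DESeq2 1.42.0, other size factors, no filter, another transcript, a subtracted CDS length trend (loess), blocks by replicate and leave-one-out fits were alternatives. SE is the log2 difference divided by the square root of F, and 95% intervals are 1.96 SE on either side. Density quotients were tested by exact permutation (SciPy 1.17.1, Python 3.11.15), for which the smallest p of 6 against 6 is 0.00216. The fits were checked on simulated counts. Input and pulldown with the same number were taken to come from the same culture. Their deviations from group means correlated at 0.35 to 0.71 in 12 pairs of the KCl experiment. In 3 pairs with DHPG the correlation was −0.23 to 0.07 and in 4 knockdown pairs 0.0055 to 0.027, so the counts did not show the pairing there. With 2 libraries in a knockdown group, both pairs of a state have the same value. Same-numbered cultures of different groups correlated at −0.29 to 0.63.

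The members, the lists and the tests were chosen with earlier results of these data known. Named were the 7 members, the Dlg4, Eif4g2, Arc and Fos checks, of 64 partners those of smallest p (3 in each direction) with an FDR below 0.05 and all same-numbered pairs in 1 direction, and 2 genes of like pattern for each member, with a mean log2 CPM of at least 5. Of the partners named by the rule, a part is printed, and 1 gene of like pattern is not reported here. Deposited RPKM equals scaled counts and was not used.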

Additional observations from a re-analysis of the deposited data

How the results depend on the processing

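Single-gene values kept direction and side of the threshold in 1188 of 1288 cases under alternatives that kept all replicates and in 466 of 574 that left a replicate out. These totals include values called in neither fit, so they say little about how stable the calls were. A call was lost with the sign kept in 33 and 70 cases. With the CDS length trend removed the counts of members called were 1 at rest and 1 after KCl for TurboID-PSD95 pulldown over input, 0 for depolarized Pan-TurboID, 1 for the KCl response of TurboID-PSD95 pulldowns and 0 for Pan-TurboID pulldowns, 4 for DHPG pulldowns against rest, 5 for resting knockdown pulldown over input, 3 for the KCl response of knockdown inputs and 2 for depolarized knockdown inputs against cultures without siRNA. That setting also turned the sign of Nrxn3 pulldown over input to −0.18 and −0.23 for TurboID-PSD95 and −0.28 and −0.43 for Pan-TurboID (rest, KCl), of Nrxn3 (−0.45) and Nlgn1 (−0.12) after DHPG, of Nrxn2 in resting knockdown cultures (−0.57), of Nrxn2 (−0.46), Nrxn3 (−0.62), Nlgn1 (−0.29) and Nlgn2 (−0.17) in depolarized ones, and of Nlgn3 in KCl inputs (0.10) and TurboID-PSD95 pulldowns (0.062). With the replicate block by culture 6 members were called in depolarized TurboID-PSD95, resting Pan-TurboID and depolarized Pan-TurboID pulldowns over input, and with the replicate number alone as a block 5 in depolarized TurboID-PSD95 and 1 in resting Pan-TurboID; no other count moved by over 1.5 times under a block. In the KCl change of TurboID-PSD95 enrichment, Nlgn1 turned to 0.017 without a filter, 0.0084 and 0.034 with the replicate number and the culture as a block and 0.017 against the mean of both inputs, Nlgn3 to 0.0059 in the last and Nrxn3 to 0.0030 with the culture block. With the replicate number as a block Nlgn2 turned to 0.044 in resting knockdown inputs against cultures without siRNA and the 5′ UTR of Lrrtm1 to −0.055 in TurboID-PSD95 pulldowns. DESeq2's size factors and the fit without a filter gave 0 for the KCl response of Pan-TurboID pulldowns, the transcript with the highest count gave 4 for DHPG pulldowns against rest, and the likelihood ratio test, DESeq2, its size factors and no filter gave 1 each for depolarized knockdown inputs against cultures without siRNA. Normalizing 5′ UTR counts to their own library sizes turned the KCl response in TurboID-PSD95 pulldowns to −0.16 for Nrxn2, −0.12 for Nrxn3, −0.086 for Nlgn2 and −0.60 for Lrrtm1, and in inputs to −0.018 for Nlgn1 and −0.0029 for Nlgn2. Without the first CDS exon the Nrxn3 pulldown difference was 0.46 and passed. The cause of these moves was not tested. Leaving out 1 replicate, calls ranged from 0 to 5 (resting) and 0 to 2 (depolarized) for TurboID-PSD95 pulldown over input, 0 to 1 for depolarized Pan-TurboID, 0 to 4 for the KCl response of inputs, 0 to 3 and 0 to 2 for that of TurboID-PSD95 and Pan-TurboID pulldowns, 3 to 5 for DHPG inputs and 2 to 5 for DHPG pulldowns against rest, 1 to 4 for resting knockdown pulldown over input, 3 to 4 for the KCl response of knockdown inputs, 0 to 0 for resting knockdown inputs, 0 to 1 for resting and 0 to 2 for depolarized knockdown pulldowns against cultures without siRNA, and 0 to 1 for 5′ UTRs in pulldowns. The Nrxn3 shared over alpha-only difference in inputs ranged from 0.39 to 0.40. Signs turned, with no call on either side, for Nlgn1 (−0.13 to 0.51) and Nlgn3 (−0.38 to 0.14) in KCl inputs, Nlgn3 in KCl pulldowns with TurboID-PSD95 (−0.31 to 0.039) and Pan-TurboID (−0.10 to 0.29), Nlgn1 in the latter (−0.035 to 0.39), Nrxn3 in depolarized Pan-TurboID pulldown over input (−0.082 to 0.18), and the KCl change of TurboID-PSD95 enrichment of Nrxn3 (−0.12 to 0.056), Nlgn1 (−0.17 to 0.13) and Nlgn3 (−0.23 to 0.059). In knockdown cultures they turned for Nlgn1 in depolarized pulldown over input (−0.0078 to 0.21) and in the KCl response of pulldowns (−0.12 to 0.33) and for Lrrtm2 in that of inputs (−0.017 to 0.30). Against cultures without siRNA they turned for Nlgn2 (−0.10 to 0.088) and Lrrtm2 (−0.16 to 0.13) in resting inputs, Nlgn1 in depolarized inputs (−0.28 to 0.17) and Nlgn3 in depolarized pulldowns (−0.51 to 0.10). The knockdown change turned sign in the KCl response of inputs for Lrrtm1 (−0.036 to 0.16) and Lrrtm2 (−0.58 to 0.074), in that of pulldowns for Nrxn2 (−0.23 to 0.16), Nlgn1 (−0.54 to 0.38) and Lrrtm1 (−0.023 to 0.46), and in the enrichment for Lrrtm2 at rest (−0.33 to 0.11) and Lrrtm1 (−0.70 to 0.0047) and Lrrtm2 (−0.28 to 0.0049) after KCl. The 5′ UTR of Lrrtm1 in pulldowns (−0.26 to 0.23), the shared over alpha-only density of Nrxn2 in inputs (−0.11 to 0.080) and pulldowns (−0.10 to 0.020), and the density of the splice site 4 exon of Nrxn2 in inputs (−0.22 to 0.040) and Nrxn3 in inputs (−0.0085 to 0.073) and pulldowns (−0.089 to 0.055) turned sign too.

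Lrrtm1, Lrrtm2 and Nlgn1 had the lowest summed counts of the members, and each knockdown arm had only 2 cultures. Where 1 of these was left out, the lone library was assumed to vary like the others.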
